A study of Mus musculus with 9 samples.

Results

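The Hedgehog pathway genes described here are the 9 genes Gli1, Gli2, Gli3, Ptch1, Smo, Hhip, Sufu, Boc and Gas1, taken by gene symbol from tables that list 24341 genes. All 9 had enough reads to be tested in each comparison. They were followed across mouse embryonic fibroblasts (MEFs) of 3 genotypes. MEFs are connective tissue cells grown from mouse embryos. Poly(A) RNA-seq was done on WT, Atm-/- and Sirt6-/- MEFs of strain C57BL/6, with 3 libraries per genotype, grown in DMEM with FBS and given no drug or ligand by the labels. ATM is a kinase of the DNA damage response and SIRT6 is a chromatin deacetylase, and the comparison asks how the loss of each changes the transcriptome.

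Hedgehog ligands are secreted proteins that bind Patched receptors at the primary cilium, a process helped by the co-receptors Gas1, Boc and Cdon. Without ligand Patched keeps the membrane protein Smoothened (Smo) inactive, and Sufu holds the Gli transcription factors, with Gli3 largely processed to a repressor. When ligand binds, Smo is released, Gli2 activates transcription, and Gli1, Ptch1 and Hhip are induced as targets, of which Ptch1 and Hhip in turn restrain the signal. Embryonic fibroblasts carry a primary cilium and are a standard cell for studying this pathway.

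The gene counts checked 1 of the mutant labels. Sirt6 itself fell from 14.4 normalized CPM (a count scaled to a fixed library size) in WT to 0.162 in Sirt6-/-. Atm RNA was higher in the libraries labelled Atm-/- (104 CPM) than in WT (50.5 CPM), so counts of the gene neither check nor refute a disruption that leaves the transcript in place, and each direction given for Atm-/- below is that of the libraries so labelled. Trp53, which encodes p53, had 25.9 CPM in the libraries labelled Atm-/-, 219 in WT and 279 in Sirt6-/-. The submitters' treatment note names Atm-/-P53-/- and P53-/- mice among the sources of MEFs without tying them to samples, and the study describes immortalized mutant MEFs alongside primary cells, so effects of Atm, of Trp53 and of the line cannot be told apart here. The same holds for Sirt6 and the line in every Sirt6-/- result, since the study's Sirt6-/- MEFs were likewise immortalized cells from another laboratory. Total counts ran from 32187040 to 33837949 per library. WT replicate 2 stood apart from the other WT libraries, with a chi-square per gene of 14.4 to 15.6 against them, where all other pairs of replicates gave 5.11 to 6.66. Nothing in the labels says that the 3 libraries of a genotype came from separate embryos or cultures, so p-values measure the spread between these libraries, which may be technical.

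All 9 genes are protein coding and lie on 7 chromosomes of GRCm38 in the GENCODE M21 annotation. The receptor-level genes are Ptch1 (chr13:63508328-63573598, minus strand), Gas1 (chr13:60174405-60177365, minus), Boc (chr16:44485049-44558897, minus), Hhip (chr8:79965851-80058006, minus) and Smo (chr6:29735503-29761365, plus). Sufu lies at chr19:46396896-46488804 on the plus strand. The transcription factors are Gli1 (chr10:127329882-127341974, minus), Gli2 (chr1:118834132-119053619, minus) and Gli3 (chr13:15463235-15730026, plus). Gas1 and Ptch1 are 3.33 Mb apart on chromosome 13. The annotation has an antisense gene, Gm47200, overlapping Gli1 and a lincRNA, Gm48488, overlapping Gas1 on the other strand, and the library protocol marks no strand, so reads of those partners cannot be told from reads of Gli1 and Gas1. Smaller opposite-strand overlaps have the same limit. They cover at most 188 exon bases of Gli3 (Gm6556), 175 of Hhip (Gm27820) and 62 of Gli1 (Arhgap9).

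The promoters of Ptch1, Hhip and Gas1 are printed as examples of 3 different patterns among the genes found in the promoter table: Ptch1 was higher in both mutants, Hhip was higher in Atm-/- and lower in Sirt6-/-, and Gas1 was lower in Atm-/- and higher in Sirt6-/-. Each is the 250 bases before the RefSeq start on GRCm38.p6, 5′ to 3′ on the gene's own strand, with GC boxes (GGGCGG on either strand) and CCAAT boxes (CCAAT on either strand) in capitals. The stretches are chr13:63565736-63565985 for Ptch1, chr8:80058009-80058258 for Hhip and chr13:60177536-60177785 for Gas1, all on the minus strand. The Ptch1 stretch lies within the gene span given above, so an annotated start further upstream was not searched.
Ptch1: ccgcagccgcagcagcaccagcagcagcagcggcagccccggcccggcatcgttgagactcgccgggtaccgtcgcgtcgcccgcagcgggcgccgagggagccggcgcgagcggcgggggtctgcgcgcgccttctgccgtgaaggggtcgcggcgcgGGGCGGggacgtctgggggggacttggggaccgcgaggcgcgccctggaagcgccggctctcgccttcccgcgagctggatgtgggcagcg
Hhip: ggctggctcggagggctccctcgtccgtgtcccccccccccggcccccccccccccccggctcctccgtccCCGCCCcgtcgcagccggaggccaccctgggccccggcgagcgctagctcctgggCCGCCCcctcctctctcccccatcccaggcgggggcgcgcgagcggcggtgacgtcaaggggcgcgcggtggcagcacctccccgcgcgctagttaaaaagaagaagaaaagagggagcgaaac
Gas1: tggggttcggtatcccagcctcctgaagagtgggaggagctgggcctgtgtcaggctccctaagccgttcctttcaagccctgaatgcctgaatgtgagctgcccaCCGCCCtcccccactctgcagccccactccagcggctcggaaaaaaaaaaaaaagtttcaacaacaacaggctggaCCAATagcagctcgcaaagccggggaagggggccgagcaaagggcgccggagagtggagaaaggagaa
Among the 7 genes found in the promoter table (Gli1 and Boc were not matched), the GC box was present in 6 (all but Smo), and in 32.7% of the 32851 RefSeq promoter stretches of this length. CCAAT was present in Gas1 and Sufu and in 33.8% of all stretches. The Gli binding letters GACCACCCA, searched on both strands, were in none of the 7 and in 0.225% of all stretches, and the shorter CCACCCA was in none of the 7 and in 8.11% of all. The Ptch1 stretch was 78.4% G or C with 41 CpG dinucleotides, Hhip 76.0% with 28 and Gas1 58.8% with 10, where the median over all stretches was 52.4% with 6.

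In Atm-/- against WT, the co-receptors Gas1 and Boc and the transcription factors Gli1 and Gli2 fell, while Ptch1 and above all Hhip rose. Thus 6 of 9 genes passed an adjusted p of 0.05 in edgeR's quasi-likelihood test, 2 higher and 4 lower, where 68.4% of the 13283 genes tested were called, 34.7% higher and 33.6% lower. The share of Hedgehog genes called (66.7%) was therefore near that of all genes. In Sirt6-/- against WT, Gas1, Boc, Ptch1, Gli1, Sufu and Gli3 rose and Gli2 and Hhip fell. That made 8 of 9 genes called, 6 higher and 2 lower, where 76.6% of the 13206 genes tested were called, 39.2% higher and 37.4% lower. The median log2 fold change of the 9 genes was -0.06 in Atm-/- and 0.93 in Sirt6-/-, and that of all genes tested was 0.02 in both. At 2-fold or more, 3 genes changed in Atm-/- (22.5% of all genes tested) and 5 in Sirt6-/- (29.3%). The normalized CPM of the 3 libraries did not overlap those of WT for 6 genes in Atm-/- (72.6% of all genes tested) and for 8 in Sirt6-/- (79.0%). Without WT replicate 2 the counts of called genes were again 6 and 8. When any 1 of the other libraries was left out, 5 genes were called in Atm-/-, since Gli1 lost its call, and 8 or 9 in Sirt6-/-. Both comparisons use the same WT libraries.

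**Figure D1:**
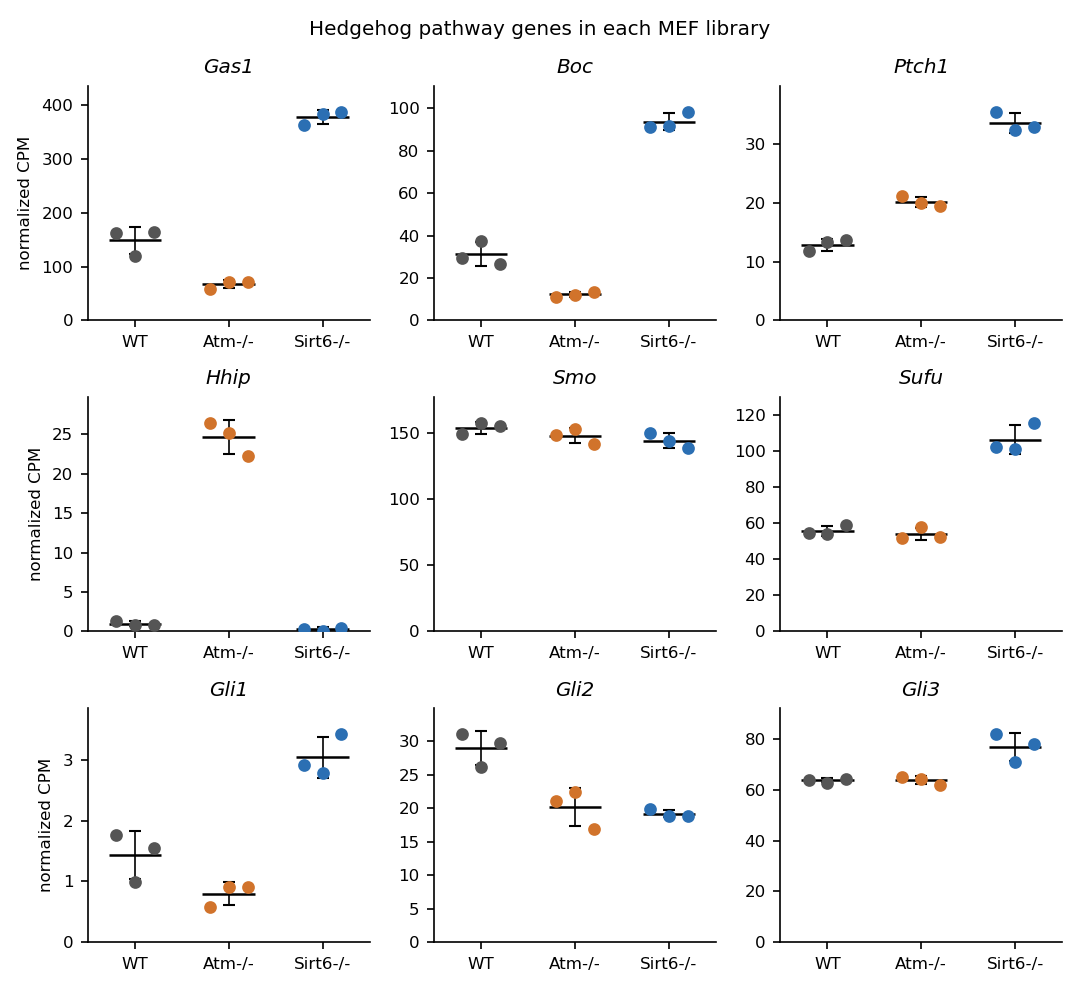
Normalized CPM (y axis, linear, from 0) of the 9 Hedgehog genes in each of the 9 libraries, by genotype (x axis). Points are libraries, long bars the mean and error bars the SD of 3 libraries; Hhip stands at 22.2 to 26.4 CPM in Atm-/- and below 1.4 elsewhere, and Gas1 and Boc are lowest in Atm-/- and highest in Sirt6-/-.

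Gas1, a membrane-anchored co-receptor that promotes ligand binding, had 162, 121 and 164 CPM in the WT libraries, 59.1, 72.4 and 71.0 in Atm-/-, and 364, 385 and 388 in Sirt6-/-. The 3 genotypes did not overlap, and the lowest WT library was replicate 2. Against WT, Gas1 fell in Atm-/- (log2 fold change -1.15 ± 0.10 SE, adjusted p = 1.73e-07) and higher in Sirt6-/- (1.35 ± 0.09, adjusted p = 3.36e-09). Boc, an immunoglobulin-superfamily co-receptor, had 29.4, 37.4 and 26.7 CPM in WT, 11.2, 12.2 and 13.3 in Atm-/-, and 91.3, 91.4 and 98.2 in Sirt6-/-. It showed the same order of genotypes as Gas1 with no overlap. The log2 fold change of Boc was -1.35 ± 0.12 in Atm-/- (adjusted p = 1.48e-07) and 1.59 ± 0.10 in Sirt6-/- (adjusted p = 1.16e-09).

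Cdon, the paralog of Boc and the third co-receptor, was below WT in both mutants. It had 201, 160 and 198 CPM in WT, 33.2, 31.8 and 31.6 in Atm-/-, and 57.5, 59.5 and 59.0 in Sirt6-/- (log2 fold change -2.54, adjusted p = 1.21e-12, and -1.67, adjusted p = 3.47e-11). On the deposited RPKM scale, which divides by gene length and so allows levels of different genes to be added, the 3 co-receptors summed to 75.9 ± 9.34 (SD, n = 3) in WT, 30.2 ± 2.50 in Atm-/- and 150.5 ± 4.08 in Sirt6-/-. Gas1 made up 58.9% ± 2.87 of that sum in WT, 74.8% ± 2.0 in Atm-/- and 80.5% ± 0.385 in Sirt6-/-. The co-receptor RNA of both mutants was thus more dominated by Gas1 than that of WT, from a smaller total in Atm-/- and a larger one in Sirt6-/-, with no overlap between genotypes for either measure.

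**Figure D2:**
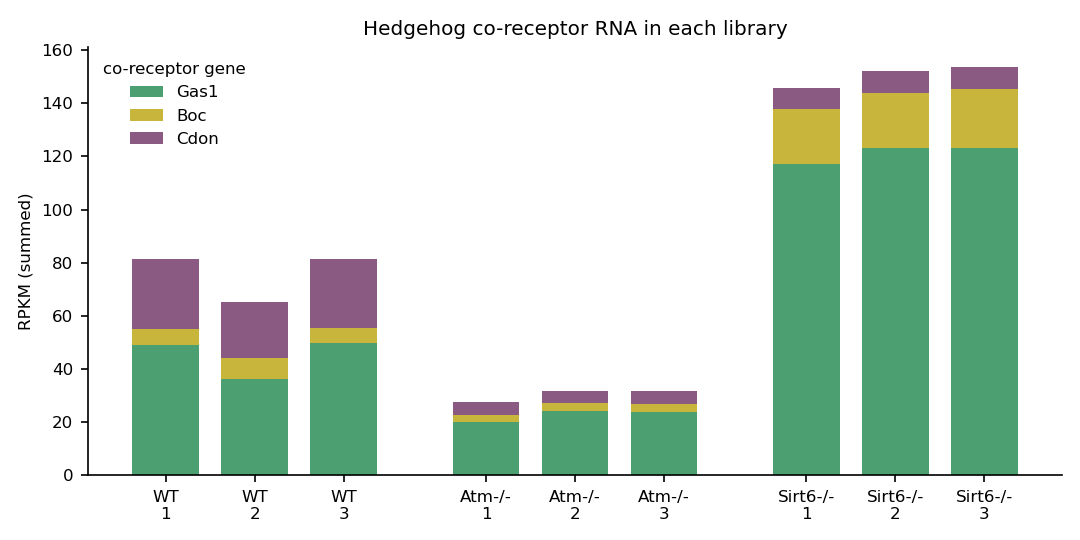
Deposited RPKM (y axis, from 0) of the co-receptor genes Gas1, Boc and Cdon, stacked for each of the 9 libraries (x axis, genotype and replicate number). The stacks reach 27.3 to 31.8 in Atm-/-, 65.1 to 81.3 in WT and 146 to 154 in Sirt6-/-, and the Cdon segment is largest in WT.

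Ptch1, the ligand receptor that keeps Smo inactive and a standard transcriptional target of the pathway, had 11.7, 13.3 and 13.6 CPM in WT, 21.1, 19.9 and 19.5 in Atm-/-, and 35.4, 32.3 and 32.9 in Sirt6-/-. Every library of either mutant was above every WT library. The log2 fold change was 0.64 ± 0.10 in Atm-/- (adjusted p = 3.78e-05) and 1.38 ± 0.09 in Sirt6-/- (adjusted p = 2.05e-09). Hhip, which encodes a decoy that binds Hedgehog ligands and is also a target, had 42, 24 and 27 counts in WT, 916, 883 and 752 in Atm-/-, and 11, 2 and 16 in Sirt6-/-. In CPM these were 0.767 to 1.32, 22.2 to 26.4 and 0.0618 to 0.480, with no overlap between genotypes. Hhip was 24.8-fold higher in Atm-/- than in WT (log2 4.63 ± 0.17, adjusted p = 7.08e-12). In Sirt6-/- it fell by 1.72 on the log2 scale, with an SE of 0.53 (adjusted p = 0.00873). By RPKM, Hhip was 3.68% ± 1.43 (SD, n = 3) of Ptch1 in WT, 57.8% ± 3.36 in Atm-/- and 0.411% ± 0.303 in Sirt6-/-. The 2 negative feedback genes therefore moved together in Atm-/- and apart in Sirt6-/-.

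Smo, the signal transducer, was the most even of the 9 genes. It had 149, 157 and 155 CPM in WT, 148, 153 and 142 in Atm-/-, and 150, 144 and 139 in Sirt6-/-, and the genotypes overlapped. The difference from WT was not significant in Atm-/- (log2 fold change -0.06, 95% interval -0.17 to 0.04, adjusted p = 0.251) or in Sirt6-/- (-0.09, -0.20 to 0.01, adjusted p = 0.0943). The ratio of Ptch1 to Smo RPKM was 7.73% ± 0.433 (SD, n = 3) in WT, 12.6% ± 0.596 in Atm-/- and 21.5% ± 0.641 in Sirt6-/-, following Ptch1.

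Sufu, the cytoplasmic inhibitor of Gli proteins, had 54.6, 53.9 and 58.8 CPM in WT, 51.6, 57.7 and 52.3 in Atm-/-, and 102, 101 and 116 in Sirt6-/-. Only the Sirt6-/- libraries stood clear of WT. The log2 fold change in Sirt6-/- was 0.93 ± 0.06 (adjusted p = 4.8e-09). In Atm-/- it was -0.06 with a 95% interval of -0.20 to 0.08 (adjusted p = 0.446).

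Gli1, the transcription factor commonly read as a target of the pathway, was the least abundant Gli gene. It had 56, 31 and 49 counts in WT, 20, 32 and 31 in Atm-/-, and 95, 90 and 114 in Sirt6-/-. The corresponding CPM ranges were 0.991 to 1.76, 0.577 to 0.915 and 2.78 to 3.42, so the genotypes did not overlap, although the nearest WT and Atm-/- libraries lay close. Gli1 was higher in Sirt6-/- (log2 fold change 1.08 ± 0.27, adjusted p = 0.00191). It was lower in Atm-/- with a value just past the threshold (-0.84 ± 0.35, adjusted p = 0.0447). That call was lost when WT replicate 1 or 3 or any 1 of the 3 Atm-/- libraries was left out (adjusted p from 0.0672 to 0.166), and adjusted p was 0.0174 without WT replicate 2. Gli1 and Ptch1, both targets, were each higher in Sirt6-/-, whereas in Atm-/- the value of Gli1 was below WT and that of Ptch1 above.

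Gli2, the main activator, had 31.1, 26.2 and 29.8 CPM in WT, 21.1, 22.4 and 17.0 in Atm-/-, and 19.9, 18.9 and 18.9 in Sirt6-/-. It was lower in both mutants, with a log2 fold change of -0.53 ± 0.11 (adjusted p = 0.000412) and -0.59 ± 0.09 (adjusted p = 1.77e-05). Gli3, the source of the main repressor, had 63.9, 62.7 and 64.2 CPM in WT, 64.9, 64.3 and 61.9 in Atm-/-, and 81.8, 71.0 and 77.9 in Sirt6-/-. It rose in Sirt6-/- (0.27 ± 0.06, adjusted p = 0.000873), and in Atm-/- the log2 fold change was -0.01 (95% interval -0.12 to 0.11, adjusted p = 0.931). The ratio of Gli3 to Gli2 RPKM was 1.75 ± 0.137 (SD, n = 3) in WT, 2.55 ± 0.322 in Atm-/- and 3.18 ± 0.170 in Sirt6-/-. Gli1 amounted to 3.28% ± 0.800 of the summed Gli2 and Gli3 RPKM in WT, 2.09% ± 0.565 in Atm-/- and 6.92% ± 0.746 in Sirt6-/-.

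The values for Gli3, Smo and Sufu in Atm-/- depend on scaling. When counts were scaled by library totals instead of TMM factors, the median of all genes in Atm-/- against WT moved by 0.16 on the log2 scale and these 3 genes turned from slightly negative to 0.16, 0.10 and 0.11. Gli3 then passed the threshold (adjusted p = 0.0177). Called genes were higher in 50.8% of cases with TMM and in 64.9% with library totals. In Sirt6-/- against WT these shares were 51.2% and 57.3%.

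**Figure D3:**
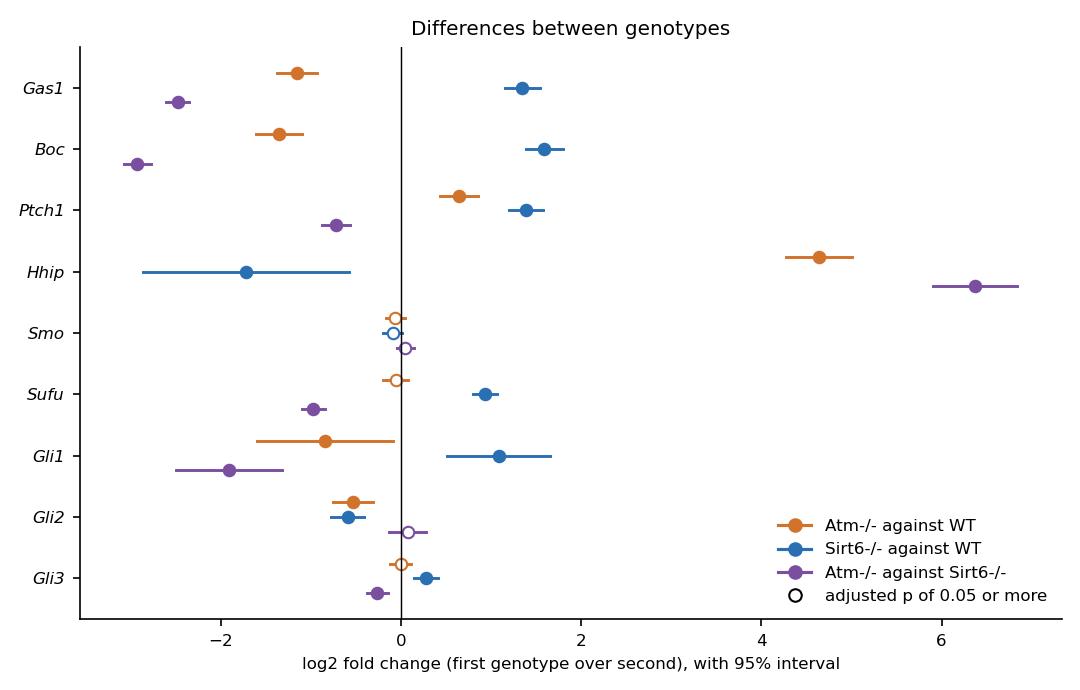
Log2 fold change (x axis) of each Hedgehog gene (y axis) in the 3 comparisons, with lines for the 95% interval and open symbols for an adjusted p of 0.05 or more. Gas1, Boc, Gli1 and Hhip lie on opposite sides of 0 in the 2 mutants when compared with WT, while Ptch1 and Gli2 lie on the same side.

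The 2 mutants were also compared with each other. Of the 9 genes, 7 were called (75.8% of the 13460 genes tested), with Hhip higher in Atm-/- and Gas1, Boc, Gli1, Sufu, Ptch1 and Gli3 lower, where 38.0% of all genes were higher and 37.8% lower. Their libraries did not overlap for 7 genes (78.2% of all genes tested), and 4 genes differed by 2-fold or more (25.5%). Hhip was 82.8-fold higher in Atm-/- than in Sirt6-/- (log2 6.37 ± 0.22, adjusted p = 4.1e-16). Boc was 7.60-fold lower (log2 -2.93 ± 0.07, adjusted p = 5.03e-19) and Gas1 5.59-fold lower (-2.48 ± 0.06, adjusted p = 4.48e-19). Gli1 differed by -1.91 ± 0.28 (adjusted p = 3.42e-06), so the 2 mutants were separated for this gene although its call against WT in Atm-/- was marginal. The differences in Sufu (-0.97 ± 0.06, adjusted p = 4.84e-12), Ptch1 (-0.73 ± 0.08, adjusted p = 2.08e-08) and Gli3 (-0.27 ± 0.06, adjusted p = 0.000281) were smaller. Gli2 (0.07, 95% interval -0.13 to 0.28, adjusted p = 0.505) and Smo (0.04, -0.05 to 0.14, adjusted p = 0.385) were not called.

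Between genes, levels are compared in RPKM. In WT the order was Gas1 (44.9), Smo (36.4), Sufu (11.6), Gli3 (7.12), Boc (6.64), Gli2 (4.08), Ptch1 (2.82), Gli1 (0.369) and Hhip (0.102). Gas1 and Smo overlapped across WT libraries, as did Gli3 and Boc, so their order is not resolved. In Atm-/- Smo (39.0) stood above Gas1 (22.6), and Gli2 (3.16), Boc (2.91) and Hhip (2.85) lay within their spread of each other. In Sirt6-/- Gas1 (121) exceeded Smo (36.3), and Boc (21.2) stood near Sufu (23.6), while Hhip was last at 0.0323. The deposited RPKM divides Ptch1 by a length of 4305 bases where the exons of all annotated Ptch1 transcripts span 14185. Listed lengths were also shorter for Sufu (4522 and 7691), Smo (3977 and 5621), Gli1 (3662 and 4995) and Gli3 (8426 and 9589). The gap was smaller for Gli2 (6708 and 6869) and Boc (4428 and 4451). The place of these genes in this order, and the level of RPKM ratios that use them, thus depend on the transcript model. Dividing by a fixed length does not itself change their differences between genotypes. Whether the transcripts in use differed by genotype was not tested.

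No library held more than a trace of ligand RNA. Shh was at 0 counts in all 9 libraries, and the floor set by 3 counts was 0.0887 to 0.0932 CPM before scaling. Ihh had at most 6 counts and Dhh at most 8 in any library, so none of the 3 ligands could be tested. Of the 3 tested genes for ligand release, 3 were lower in Atm-/- (33.6% of all genes) and 2 in Sirt6-/- (37.4% of all genes). Disp1, the transporter that releases lipid-modified ligand, fell from 166 CPM in WT to 47.6 in Atm-/- (log2 fold change -1.81, adjusted p = 4.2e-13) and 43.5 in Sirt6-/- (-1.93, adjusted p = 1.34e-13). Scube3, of a family of secreted ligand carriers, fell by 2.08 and 1.77 on the log2 scale (adjusted p = 3.43e-05 and 0.000261). Hhat, the acyltransferase that palmitoylates the ligand, was lower in Atm-/- (-0.63, adjusted p = 0.00138), with -0.20 in Sirt6-/- (adjusted p = 0.198).

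Other ligand-binding proteins were lower in both mutants, with 3 of the 3 tested genes called lower in each (33.6% of all genes in Atm-/- and 37.4% in Sirt6-/-). Gpc3, a glypican that competes with Ptch1 for ligand, had 177 CPM in WT, 1.28 in Atm-/- and 0.558 in Sirt6-/- (log2 fold change -7.11 and -8.29, adjusted p = 4.91e-14 and 6.43e-15). Lrp2, an endocytic receptor that can bind Hedgehog ligand, had 22.4, 9.42 and 9.69 CPM (-1.26 and -1.21, adjusted p = 5.27e-07 and 5.48e-06). The rise of Gas1 and Boc in Sirt6-/- was thus accompanied by lower Cdon, Gpc3 and Lrp2.

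Among 22 genes that regulate Smo or Gli proteins, 5 were higher and 11 lower in Atm-/-, and 10 were higher and 5 lower in Sirt6-/-. As shares these were 22.7% and 50% in Atm-/- (34.7% and 33.6% of all genes) and 45.5% and 22.7% in Sirt6-/- (39.2% and 37.4% of all genes). With library totals the Atm-/- split turned to 9 higher and 5 lower, whereas in Sirt6-/- it was 12 and 4. Over all genes, library totals gave 6156 higher and 3326 lower of 13283 tested in Atm-/-, and 5796 and 4317 of 13206 in Sirt6-/-. Stk36, the homolog of the fly Fused kinase, was higher in both mutants (log2 fold change 1.51 and 2.74, adjusted p = 3.96e-05 and 6.29e-09). Efcab7, which tethers the Ellis-van Creveld complex that relays the Smo signal in the cilium, was also higher in both (1.12 and 1.72, adjusted p = 1.68e-05 and 4.45e-08). Dzip1, a ciliary protein that binds Gli3, fell in Atm-/- (-0.96, adjusted p = 3.13e-08) and rose in Sirt6-/- (0.51, adjusted p = 2.48e-06). Gsk3b, a kinase that marks Gli proteins for processing, fell in both (-0.75, adjusted p = 3.82e-09, and -0.40, adjusted p = 2.15e-06). Rab23, a GTPase that restrains the pathway, was higher in both (0.19, adjusted p = 0.0344, and 1.21, adjusted p = 1.11e-10).

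Genes of intraflagellar transport, the motor and cargo system that builds the cilium and moves pathway proteins through it, were mostly higher in Sirt6-/-. There 22 of 27 were higher (81.5%, against 39.2% of all genes) and 2 lower, with a median log2 fold change of 0.74. In Atm-/- 13 were higher (48.1%, against 34.7% of all genes) and 6 lower (22.2%, against 33.6%), with a median of 0.23. With library totals the counts were 22 and 1 in Sirt6-/- and 16 and 2 in Atm-/-. All genes then gave 5796 higher and 4317 lower of 13206 tested in Sirt6-/-, and 6156 and 3326 of 13283 in Atm-/-. Dync2li1, a light intermediate chain of the retrograde dynein, rose in both (2.22, adjusted p = 1.79e-09, and 2.72, adjusted p = 9.07e-11). Dync2h1, the heavy chain of that motor, rose from 18.3 to 57.4 CPM in Sirt6-/- (1.65, adjusted p = 2.69e-11) and was not called in Atm-/- (-0.04, adjusted p = 0.675, and 0.12 with library totals). Kif3a, a subunit of the anterograde kinesin, rose in both (0.89, adjusted p = 5.57e-07, and 1.33, adjusted p = 3.54e-09). Of the transport complex itself, Ift74 rose in both mutants (1.12, adjusted p = 1.23e-08, and 1.53, adjusted p = 1.3e-10). So did Ttc26 (0.85, adjusted p = 0.000498, and 1.64, adjusted p = 2.15e-07) and Ttc30b (1.56, adjusted p = 1e-07, and 1.75, adjusted p = 1.73e-08). Ttc30b has close paralogs, and how shared reads were counted is not given in the sources used here.

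**Figure D4:**
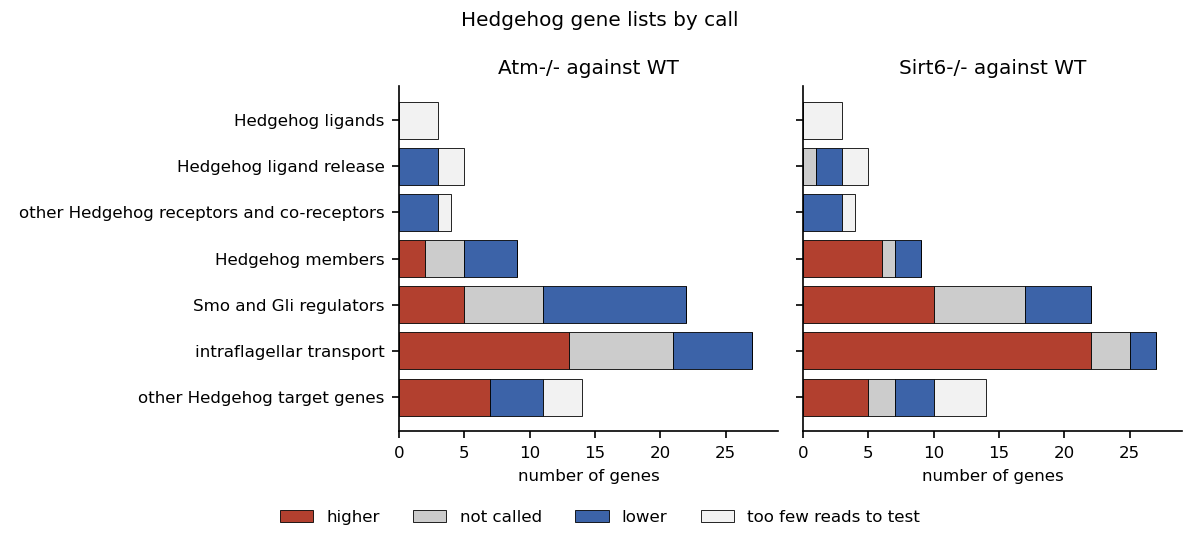
Number of genes (x axis) higher, not called, lower or with too few reads to test in 7 Hedgehog gene lists (y axis), for each mutant against WT with TMM scaling. In Sirt6-/- 22 of 27 intraflagellar transport genes are higher, and in Atm-/- 11 of 22 Smo and Gli regulators are lower, a split that turns with library totals. With library totals, 6156 of all 13283 genes tested in Atm-/- are called higher and 3326 lower.

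A list of 14 other genes known as Hedgehog targets in some tissue did not move one way. In Atm-/- 7 of the 11 tested were higher and 4 lower, and in Sirt6-/- 5 of the 10 tested were higher and 3 lower. The shares were 63.6% higher and 36.4% lower in Atm-/- (34.7% and 33.6% of all genes) and 50% and 30% in Sirt6-/- (39.2% and 37.4% of all genes). Mycn, a growth-promoting transcription factor, had 111, 84.0 and 113 CPM in WT, 2.68, 4.0 and 3.04 in Atm-/-, and 5.12, 5.90 and 3.36 in Sirt6-/- (log2 fold change -4.99, adjusted p = 4.48e-13, and -4.42, adjusted p = 2.19e-12). Foxc2, a mesenchymal forkhead factor, had 6 to 10 counts in WT libraries, 256 to 331 in Atm-/- and 229 to 306 in Sirt6-/- (5.09, adjusted p = 2.16e-10, and 4.96, adjusted p = 2.67e-10). Nkx3-2, a homeobox gene of sclerotome and cartilage, was at 0 in all WT libraries, with 33 to 53 counts in Atm-/- and 107 to 226 in Sirt6-/-. Set against a floor of 3 counts per library, it was at least 13.8-fold higher in Atm-/- and at least 56.4-fold higher in Sirt6-/-. Foxa2, a floor plate and endoderm factor, had 912, 838 and 929 counts in Atm-/- and at most 2 in any other library. Snai1, a transcription factor of mesenchymal cells, rose from 39.4 to 128 CPM in Sirt6-/- (1.71, adjusted p = 8.24e-10) and fell to 28.1 CPM in Atm-/- (-0.49, adjusted p = 0.00112). Foxa2 was thus high in Atm-/- libraries and near 0 in the rest. Hhip was also highest in Atm-/-, but had up to 1.32 CPM in WT. Foxc2 and Nkx3-2 were high in both mutants.

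Markers of cell identity also moved with genotype, and their part in the Hedgehog values was not tested. The summed level of 10 fibroblast markers was 27663 to 30788 CPM in WT, 8734 to 8996 in Atm-/- and 18748 to 19140 in Sirt6-/-. Lum was at 0 in Atm-/-, but had at most 10 counts in any WT library, too few to test. Of the 9 tested, 8 were lower and 1 higher in Atm-/-, and 6 were lower and 3 higher in Sirt6-/-. As shares, 88.9% were lower and 11.1% higher in Atm-/-, where 33.6% and 34.7% of all genes were. In Sirt6-/- 66.7% were lower and 33.3% higher, against 37.4% and 39.2% of all genes. The 1 higher in Atm-/- was Thy1 (24.4 CPM in WT and 87.3 in Atm-/-), which fell to 0.470 CPM in Sirt6-/-. The 5 chondrocyte markers summed to 5.37 to 5.78 CPM in WT, 71.1 to 87.2 in Atm-/- and 267 to 318 in Sirt6-/-, with Matn1 and Col9a1 at 0 in all libraries. Different genes carried most of these sums, Acan in Atm-/- (57.1 CPM, and 1.60 in Sirt6-/-) and Col2a1 in Sirt6-/- (273 CPM, and 0.793 in Atm-/-). Acan was also above its WT level of 0.0531 CPM in Sirt6-/- (adjusted p = 2.89e-06). Sox9 was higher in both mutants, with 5.04 CPM in WT, 23.1 in Atm-/- and 20.5 in Sirt6-/- (adjusted p = 2.12e-10 and 2.77e-10). The 5 neural markers summed to 7.54 to 8.65, 277 to 286 and 270 to 292 CPM, mostly Nes (170 CPM in Atm-/- and 196 in Sirt6-/-). Map2 (1.93 CPM in WT, 82.3 in Atm-/- and 52.3 in Sirt6-/-) and Tubb3 (1.87, 10.5 and 29.3) were also higher in both mutants. Sox2 had 0.380 CPM in WT, 19.0 in Atm-/- and 0.0618 in Sirt6-/-. Elavl3 had too few reads to test. Epithelial markers summed to 23.2 to 27.4, 46.1 to 50.6 and 17.7 to 22.4 CPM. Of 6 tested, 2 were higher in Atm-/- (33.3%, against 34.7% of all genes) and 2 lower in Sirt6-/- (33.3%, against 37.4%). Krt18 was among both (log2 fold change 1.96, adjusted p = 2.16e-09, and -0.51, adjusted p = 0.0114). Endothelial markers summed to 3.11 to 5.15, 9.80 to 12.5 and 0.649 to 0.990. Only Kdr was tested, higher in Atm-/- (1.69, adjusted p = 7.29e-07) and lower in Sirt6-/- (-3.89, adjusted p = 4.1e-07). Haematopoietic markers summed to 15.0 to 16.0, 6.85 to 7.51 and 7.15 to 8.50. Of 3 tested, Csf1r was lower in both mutants (-3.43, adjusted p = 2.02e-09, and -1.86, adjusted p = 2.01e-06). Skeletal muscle markers summed to 0.847 to 1.59, 0.490 to 1.0 and 0.210 to 0.556, with Myog and Myf5 at 0 in all libraries. In bulk RNA a different number of cells of a type and a different level per cell cannot be told apart.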

How the data were processed

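Gene-level read counts and RPKM values were used as deposited, 1 table per library. Per the labels, poly(A) RNA was fragmented and copied with random hexamers by a protocol that marks no strand, and the submitters' processing notes name the mm10 build. The aligner and counter are not given in the sources used here. RPKM, the authors' count scaled by gene length and library size, was used to compare and add levels of different genes, and for ratios between them. Of deposited counts from 1 to 10, 61.9% to 64.8% per library were even; whether both mates of a pair were counted was not tested. Genes were filtered with filterByExpr, scaled with TMM factors (0.942 to 1.05) and tested in edgeR 4.0.16 (R 4.3.3) with the quasi-likelihood test, Benjamini-Hochberg adjusted over all genes tested, in a separate fit of 6 libraries per comparison. Fits were tested on simulated data. CPM values use TMM factors over all 9 libraries. Alternatives were library totals, DESeq2 1.42.0 size factors and Wald test, other count filters (none, or 10 counts in every sample), a 2-fold minimum, all 9 libraries in 1 fit, a replicate block and leaving out each library. Symbols were matched to GENCODE M21 (95.2% of 24341). From lists of over 5 genes, up to 4 called genes with the largest log2 fold change and a mean of at least 1 CPM were named per comparison with WT, and all genes of shorter lists. The genes and lists were chosen with earlier results of these data known. Some genes that this rule names are not reported here.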

Additional observations from a re-analysis of the deposited data

How the results depend on the processing

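Of the log2 fold changes of the 9 genes under the alternatives, 329 kept their direction and side of the threshold and 10 reversed. Without a reversal, 8 lost and 2 gained the call. With at least 2-fold required, 3 of 9 genes were called in Atm-/- against WT, 5 in Sirt6-/- against WT and 4 in Atm-/- against Sirt6-/-, and over all genes 2983, 3872 and 3433 in place of 9080, 10114 and 10205. The reversals were of values near 0 in the main fit. Gli3 in Atm-/- against WT with library totals is counted as a reversal, although it also gained the call (adjusted p = 0.0177). Gli3 in Atm-/- against WT was 0.000863 with size factors, 0.16 with library totals, 0.0165 with at least 10 counts in every sample, 0.0018 with all 9 libraries in 1 fit and 0.00025 with the DESeq2 Wald test, and ran from -0.0172 to 0.0233 when a library was left out, positive without Atm-/- replicate 3 (0.0233) or WT replicate 3 (0.00096). Smo and Sufu in Atm-/- against WT turned to 0.10 and 0.11 with library totals (adjusted p = 0.0752 and 0.164), and Gli2 in Atm-/- against Sirt6-/- to -0.0066 without Atm-/- replicate 2, in a range up to 0.19. Gli1 in Atm-/- against WT lost its call with library totals (-0.68, adjusted p = 0.0956), DESeq2 (-0.84, adjusted p = 0.0831) and the replicate block (-0.83, adjusted p = 0.0868), and ran from -1.05 to -0.65 when a library was left out. Smo was called in Sirt6-/- against WT without WT replicate 1 (-0.13, adjusted p = 0.043) and in Atm-/- against Sirt6-/- with library totals (0.10, adjusted p = 0.0486). The cause of these changes was not tested. With the replicate block, 5, 8 and 7 Hedgehog genes and 8833, 10041 and 10157 of all genes were called. Same-numbered libraries did not deviate together (correlation of deviations from -0.02 to 0.03), so the numbers were not taken as pairs. At this depth Gli1 and Hhip, with the fewest counts in WT, are the least precisely measured of the 9 genes, and the ligands could not be tested.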

Other observations

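Among the genes whose log2 CPM followed Ptch1 most closely over the 9 libraries, of 13748 genes compared, were Psd4, Usp28 and Glrb (Pearson r 0.997 each). Usp28 had 22.3 CPM in WT, 30.3 in Atm-/- and 44.4 in Sirt6-/-, the same order as Ptch1. For Gli1 the closest were Ppapdc1b (0.986), Zfp708, Hsdl2, Pik3ip1 (each 0.982) and Epn3 (0.981). These values are descriptions: the 9 libraries form 3 genotypes, and the genes were chosen as the closest.

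The nearest tested neighbours on the chromosome were also read for each called Hedgehog gene. They lay from 1.1 kb (Actr1a, beside Sufu) to 789 kb (Psma2, beside Gli3) away, so many are not adjacent. In Atm-/- against WT, 5 of 12 neighbours were called in the same direction as the Hedgehog gene and 2 in the opposite one, and in Sirt6-/- against WT 10 of 16 and 1. Over all genes, 34.7% were higher and 33.6% lower in Atm-/-, and 39.2% and 37.4% in Sirt6-/-. Beside the log2 fold change of 4.63 of Hhip in Atm-/-, its neighbours had smaller values: Anapc10 had 0.09 (adjusted p = 0.406) and Smarca5 0.32 (adjusted p = 2.31e-05). Anapc10 lies 186.8 kb and Smarca5 640.5 kb from Hhip. Both neighbours of Sufu were higher in Sirt6-/- as Sufu was, Actr1a by 0.50 (adjusted p = 7.01e-08) and Trim8 by 0.49 (adjusted p = 2.65e-06). Both neighbours of Gli2, Tfcp2l1 and Inhbb, were lower in each mutant, Inhbb by -0.81 in Atm-/- (adjusted p = 3.01e-06) and -6.72 in Sirt6-/- (adjusted p = 1.2e-13).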
